A study of Drosophila melanogaster with 18 samples.

Results

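ZKSCAN3-only peaks away from promoters were the ZKSCAN3 peaks of S2 cells that shared no base with a ZKSCAN4 peak and did not reach within 500 bp of the 5'-most exon boundary of any gene in the male count table. The rule gave 1332 of the 8991 ZKSCAN3 peaks (14.8%), out of 3332 that had no ZKSCAN4 overlap. They were compared with 2000 ZKSCAN3-only peaks at promoters, with 2467 ZKSCAN3 peaks away from promoters that overlapped a ZKSCAN4 peak (shared peaks), and with 2085 ZKSCAN4-only peaks away from promoters. Because the rule read peak calls and gene starts, scores and distances are given as a description. The members were thus chosen by the peak calls of both factors, and tests were made only on sequence content, on position within genes and on RNA. For its overlap and motif analyses the study left out regions bound by many factors (HOT regions). The count of 8991 is the one it gives before that step, so the members and the classes compared can include such regions.

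The study expressed the human zinc finger proteins ZKSCAN3 and ZKSCAN4, each with an HA tag (HA::ZKSCAN3 and HA::ZKSCAN4), in S2-DRSC cells, a line derived from late Drosophila embryos, and precipitated chromatin with an anti-HA antibody. Each factor came from 1 stable line under a copper-inducible promoter, with 2 ChIP replicates and 1 input, and with 1 deposited peak list per factor, so peak values carry no replicate error. Per the labels the cells received 10 microMolar copper sulphate for 24 h, while the study's methods state another dose and time. The second HA::ZKSCAN3 replicate carries HA::ZKSCAN4 as its genotype label although its title and cell line name HA::ZKSCAN3, which cannot be settled from the peak lists. RNA-seq came from fat bodies of male feeding larvae of the last instar (L3F) with gonads removed, several fat bodies pooled to a sample per the study's methods, in 4 genotypes with 2 libraries each: cgGal4>WT, cgGal4>M1BP-RNAi, cgGal4>HA::ZKSCAN3 and cgGal4>M1BP-RNAi;HA::ZKSCAN3 (shortened here to WT for the first, M1BP RNAi for the second, ZKSCAN3 for the third and M1BP RNAi + ZKSCAN3 for the last). The cgGal4 driver, present in every group, is active in fat body and also in hemocytes, and the methods give the fly transgene a myc tag where the labels give HA. Peaks and RNA levels therefore come from different cells.

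M1BP is a Drosophila zinc finger protein that binds Motif 1 (GGTCACACT), a core promoter element of constitutively active genes. Away from promoters, fly chromatin is bound by other classes of factors, among them the insulator proteins Su(Hw) and CTCF, which are zinc finger proteins with long recognition sequences, and GAGA factor, which binds GAGAG repeats. DREF and the insulator protein BEAF-32 bind the DRE (TATCGATA), GATA factors bind GATAAG, AP-1 binds TGANTCA and E-box factors bind CACGTG.

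Motif 1 was rare in the members, near its share in their flanks and over the genome. The letters that stood out at the members' centres were parts of the sequences that Su(Hw) and CTCF recognise in flies. Sequences were read from the RefSeq genome (dm6 coordinates), which covered 1306 members on the 7 named chromosome arms. A match means the letters on either strand within 100 bp of the peak centre, a window of 201 bp. The centre is the midpoint of the deposited interval, so the window covers a smaller part of wider peaks. The exact Motif 1 letters lay in 4 of 1306 members. The pair of these whose windows could be shown, outside annotated UTRs, was printed with Motif 1 in capitals.
near bap, chr3R:21386331-21386399, plus strand: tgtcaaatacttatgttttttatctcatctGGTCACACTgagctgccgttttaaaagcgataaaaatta
near swaPsi, chrX:6361398-6361466, minus strand: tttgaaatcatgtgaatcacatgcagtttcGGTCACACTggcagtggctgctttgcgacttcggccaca

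The other members with Motif 1 lay in CG13204 (score 78.8) and CG34355 (score 98.0), both within 500 bp of a further annotated transcript start. The peak near bap, a homeobox gene, had a score of 101 and the one near swaPsi a score of 19.2. Among the highest-scoring members without Motif 1 that could be shown, 3 are given by their central 201 bp. Any of the searched letters are in capitals.
near out, chrX:19326839-19327039, plus strand: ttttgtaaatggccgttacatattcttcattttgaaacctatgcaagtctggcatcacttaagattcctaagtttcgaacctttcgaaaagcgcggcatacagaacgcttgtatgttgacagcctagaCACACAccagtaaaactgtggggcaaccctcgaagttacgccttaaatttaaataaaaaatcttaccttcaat
near Pp1-Y1, chrY:264-464, plus strand: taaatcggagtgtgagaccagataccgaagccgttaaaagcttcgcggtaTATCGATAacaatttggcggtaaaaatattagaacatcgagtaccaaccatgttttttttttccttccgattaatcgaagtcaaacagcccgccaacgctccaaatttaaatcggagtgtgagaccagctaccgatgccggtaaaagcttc
near CG34342, chr3L:5512077-5512277, plus strand: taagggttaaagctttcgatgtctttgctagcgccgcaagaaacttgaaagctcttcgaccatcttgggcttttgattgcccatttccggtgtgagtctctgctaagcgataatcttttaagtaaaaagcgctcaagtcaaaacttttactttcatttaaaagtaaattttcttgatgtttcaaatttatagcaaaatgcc

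These peaks had scores of 164, 158 and 150. The peak near out held a CACACA run, the peak at the tip of the assembled Y chromosome held a DRE, and the peak near CG34342 held no match to any of the letters searched.

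An 8-mer ranking of all 1306 centre windows, made without a motif in mind, was led by AAGTATGC, which is GCATACTT on the other strand. It is the core of the published Su(Hw) recognition sequence and is called Su(Hw)-type here. It was chosen after its values were seen and so has no test. It lay in 112 members (8.58%, Wilson 95% interval 7.18 to 10.2) and in 22 of 2612 windows 1000 bp to either side (0.842%), a ratio of 10.2. Of all 681615 tiles of 201 bp on the arms, 0.893% held it. Its next neighbours in the ranking were 8-mers that overlap it, and GATGGCGC, in 59 members (4.52%) against 0.459% of flank windows. The latter is part of AGNTGGCGC, the core that fly CTCF recognises, called CTCF-type here and chosen in the same way. AGNTGGCGC lay in 73 members (5.59%, Wilson 95% interval 4.47 to 6.97), against 0.585% of tiles. The 6 highest-scoring members with the Su(Hw)-type letters that could be shown are printed with GCATACTT in capitals, each read on the strand that carries it.
near CG12617, chr2L:20287444-20287511, plus strand: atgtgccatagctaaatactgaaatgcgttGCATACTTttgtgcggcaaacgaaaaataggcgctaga
near lncRNA:CR32636, chrX:13334929-13334996, minus strand: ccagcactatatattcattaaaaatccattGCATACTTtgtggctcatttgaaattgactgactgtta
near Diedel3, chrX:19028739-19028806, plus strand: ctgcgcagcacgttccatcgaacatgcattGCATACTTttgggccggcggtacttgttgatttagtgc
ppk8 and DIP-alpha, chrX:3570451-3570518, plus strand: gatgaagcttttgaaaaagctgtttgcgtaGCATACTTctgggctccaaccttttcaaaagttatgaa
near CG31559, chr3R:6149743-6149810, minus strand: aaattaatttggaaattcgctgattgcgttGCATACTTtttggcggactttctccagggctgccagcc
Eip75B, chr3L:17988258-17988325, plus strand: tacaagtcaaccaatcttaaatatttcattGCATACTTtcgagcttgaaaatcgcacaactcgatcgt

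They scored 91.7 to 120. Over the 119 occurrences inside the centre windows or up to 2 bases beyond them, the bases beside the 8-mer were uneven: T followed directly in 80.7% of them (52.9% of the 6425 occurrences on all arms), and the bases at positions 12, 13 and 14, counted from the first letter of GCATACTT, were G in 68.9%, G in 87.4% and C in 68.1% (34.7%, 40.6% and 34.3% on all arms). The longer form with GGC at those positions occurred 740 times on the arms, and 78 of these sites (10.5%) lay under a member, although members covered 824 kb. That came to 94.6 sites per Mb covered, against 12.1 in ZKSCAN3-only promoter peaks, 10.4 in shared peaks away from promoters and 3.52 in ZKSCAN4-only peaks away from promoters. The longer form takes up the bases most frequent beside the core in these same members, so its excess in them is a description without a test. Members are also narrower than these classes by median, and sites near peak centres weigh more per Mb in narrow peaks.

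The 4 highest-scoring members with the CTCF-type letters that could be shown are printed with AGNTGGCGC in capitals.
near CG15210, chrX:10832534-10832602, minus strand: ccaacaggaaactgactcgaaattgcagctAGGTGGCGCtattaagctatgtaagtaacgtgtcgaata
sick, chr2L:19817228-19817296, minus strand: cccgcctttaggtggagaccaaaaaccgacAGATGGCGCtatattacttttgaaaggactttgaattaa
Svil, chr3L:2409461-2409529, plus strand: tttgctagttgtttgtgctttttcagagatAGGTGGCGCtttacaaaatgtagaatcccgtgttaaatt
lncRNA:CR43459, chr3R:10100720-10100788, plus strand: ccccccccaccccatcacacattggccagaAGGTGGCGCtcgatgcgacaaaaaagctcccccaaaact

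They scored 125, 122, 113 and 108. Over the 81 occurrences wholly inside the centre windows, the base directly before the core was T in 51.9% (19.7% of the 4227 occurrences on all arms), and the base 4 before it was C in 59.3% (32.0% on all arms). Sites with the CTCF-type core were at 155 per Mb covered by members and at 74.5 in ZKSCAN3-only promoter peaks, 44.7 in shared and 33.1 in ZKSCAN4-only peaks away from promoters. The limit of peak width given above holds here too. A match to letters is a description of the window and does not show that either protein was there.

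**Figure D1:**
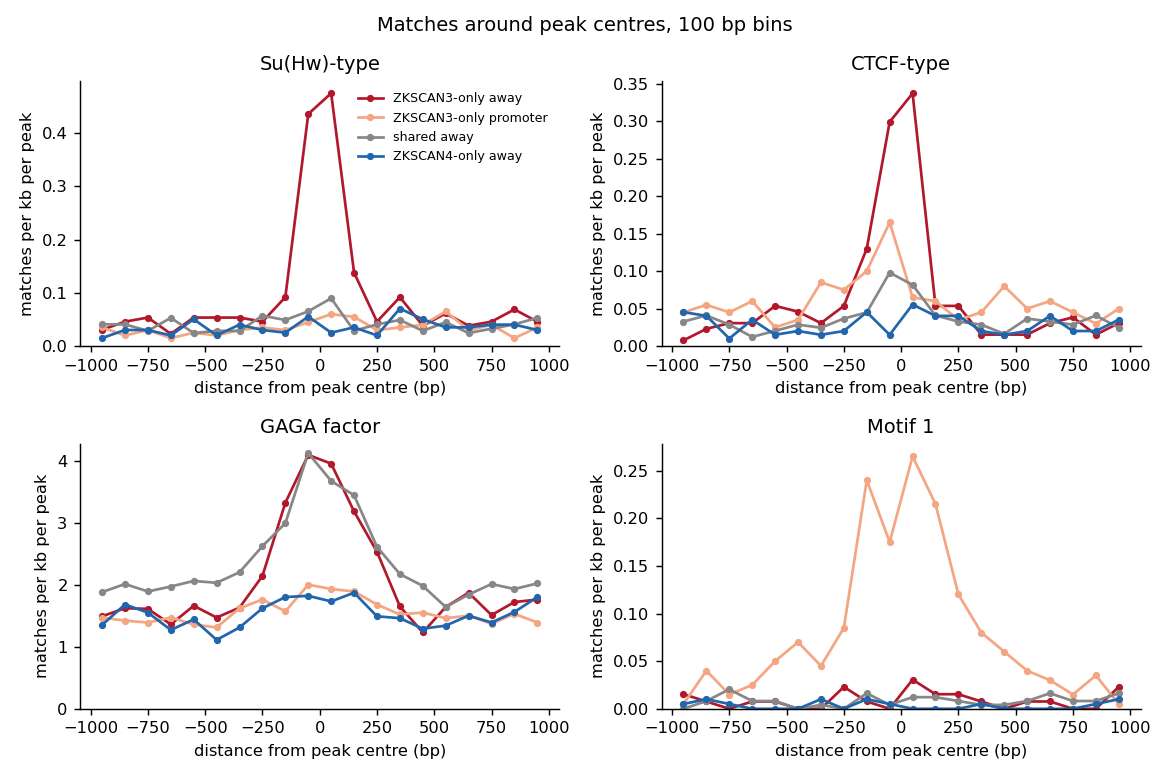
Matches per kb per peak (y axis) by distance from the peak centre in bp (x axis, bins of 100 bp) for the 4 letter patterns named above each panel, with lines for the 4 peak classes. In the members the Su(Hw)-type line rises to 57 and 62 occurrences in the bins beside the centre, and Motif 1 rises at the centre of ZKSCAN3-only promoter peaks and not of the members. The Su(Hw)-type and CTCF-type letters were chosen for their share at member centres over flanks.

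The Su(Hw)-type and CTCF-type matches were centred. These letters came from a ranking of these same members by share in centre over flank windows. Their centring therefore followed from the choice and is a description only. Here an occurrence was placed by its middle base, so those that cross a window edge count too. Of 253 Su(Hw)-type occurrences within 1000 bp of member centres, 119 lay within 100 bp, and bins of 100 bp beyond 200 bp held 3 to 12 each. Of 171 CTCF-type occurrences, 83 lay within 100 bp, and the outer bins held 1 to 7. Motif 1 occurred 23 times within 1000 bp, 4 of them within 100 bp.

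The Su(Hw)-type share stood apart from the other classes. It was 1.05% (21 of 2000) in ZKSCAN3-only promoter peaks, 1.43% (1.03 to 1.98) in shared peaks away from promoters and 0.806% (0.497 to 1.30) in ZKSCAN4-only peaks away from promoters. The CTCF-type share was 2.15% (43 of 2000), 1.35% (0.961 to 1.89) and 0.655% (0.383 to 1.12) in the same order. Over whole peaks the CTCF-type share was 8.81% (7.39 to 10.5) in members and 7.20% (6.15 to 8.42) in ZKSCAN3-only promoter peaks, with intervals that overlap. Shared promoter peaks, wider like the other promoter class, were at 8.80% (7.87 to 9.84). Shared and ZKSCAN4-only peaks away from promoters were at 4.94% and 2.17%. In the centre windows, either core was present in 176 members (13.5%), and both in 9. The Su(Hw)-type core lay in 7.65%, 10.4%, 7.36% and 8.87% of members in 4 bins of rising score with equal numbers of members, with intervals that overlap. The CTCF-type core lay in 3.36%, 3.68%, 4.91% and 10.4%, and the interval of the highest bin (7.54 to 14.2) did not overlap that of the lowest (1.89 to 5.92). By position, Su(Hw)-type letters lay in 13.5% of intergenic members (10.5 to 17.2), 7.15% of intronic members (5.42 to 9.38) and 1.67% of members centred in coding exons (0.458 to 5.87). They lay in members of the 5 large arms at 5.86% (X) to 13.1% (3R), and in 0 of 19 on chromosome 4, which allows up to 16.8% (upper Wilson limit).

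Of the letters tested, Motif 1 and the DRE separated the members from ZKSCAN3-only peaks at promoters, and GAGAG and CACACA separated them from ZKSCAN4-only peaks. The rule itself split members from promoter peaks by gene starts, and Motif 1 is a core promoter element. Comparisons of such letters with promoter peaks were therefore not independent of the rule. There were 28 tests, Fisher's exact test between classes and the exact McNemar test against each member's own flank window 1000 bp downstream, all two-sided with Benjamini-Hochberg adjustment, and peaks were counted as independent. Motif 1 lay in 0.306% of members (Wilson 95% interval 0.119 to 0.785) and in 4.30% (3.50 to 5.28) of ZKSCAN3-only promoter peaks (adjusted p = 1.92e-13). It lay in 0.230% of the members' flanks (adjusted p = 1), 0.163% of shared peaks away from promoters (adjusted p = 0.645) and 0.0504% of ZKSCAN4-only peaks away from promoters (adjusted p = 0.148), and in 0.201% of all tiles. The last of these differences passed the threshold when the whole peak was searched, at 0.842% against 0.201% (adjusted p = 0.0210).

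The DRE lay in 1.07% of members, below the 6.10% of ZKSCAN3-only promoter peaks (adjusted p = 1.92e-13) and above the 0.245% of shared peaks away from promoters (adjusted p = 0.00398) and the 0 of 1986 ZKSCAN4-only peaks away from promoters (adjusted p = 9.17e-06). It did not pass against the members' own flanks, at 0.766% (adjusted p = 0.722), and over whole peaks the order against shared peaks turned, at 1.84% and 2.12% (adjusted p = 0.732).

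GAGAG lay in 404 members (30.9%), more often than in their flanks (22.7%, adjusted p = 9.17e-06), in ZKSCAN3-only promoter peaks (21.3%, adjusted p = 5.01e-09) and in ZKSCAN4-only peaks away from promoters (23.9%, adjusted p = 3.21e-05). The shared peaks away from promoters were at 32.8%, a difference that did not pass the threshold (adjusted p = 0.398). Over whole peaks, which are wider in the other ZKSCAN3 classes, the order against promoter peaks turned to 58.1% against 64.8% (adjusted p = 2.23e-04), and against ZKSCAN4-only peaks to 58.1% against 58.7% (adjusted p = 0.823). CACACA lay in the centre windows of 24.7% of members, 18.8% of flanks (adjusted p = 5.82e-04), 15.5% of ZKSCAN3-only promoter peaks (adjusted p = 6.09e-10), 16.2% of ZKSCAN4-only peaks (adjusted p = 1.17e-08) and 24.4% of shared peaks (adjusted p = 0.911). Over whole peaks its difference from promoter peaks was gone, at 50.2% against 50.3% (adjusted p = 0.963).

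The AP-1 letters lay in 6.97% of members against 4.21% of flanks (adjusted p = 0.00643) and 80 of 2000 ZKSCAN3-only promoter peaks (adjusted p = 5.82e-04). Neither difference passed among peaks at or above the median score of their class (adjusted p = 0.255 and 0.0536). The E-box was lower in members (2.22%) than in ZKSCAN3-only promoter peaks (3.85%, adjusted p = 0.0187) and passed no other test. GATAAG did not pass any of its 4 tests, at 11.2% of members, 11.5% of flanks, 10.8% of ZKSCAN3-only promoter peaks, 13.3% of shared peaks and 11.8% of ZKSCAN4-only peaks. With GATAA in place of GATAAG, members were below shared peaks, at 34.1% against 38.4% (adjusted p = 0.0174). Together, 543 members (41.6%) held GAGAG or one of the insulator-type cores, and GAGAG lay in 22.3% of members with the Su(Hw)-type core and in 17.8% of those with the CTCF-type core. GAGAG alone lay in 21.6% of all tiles and in 22.7% of the members' flanks. No background share was taken for the combination.

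**Figure D2:**
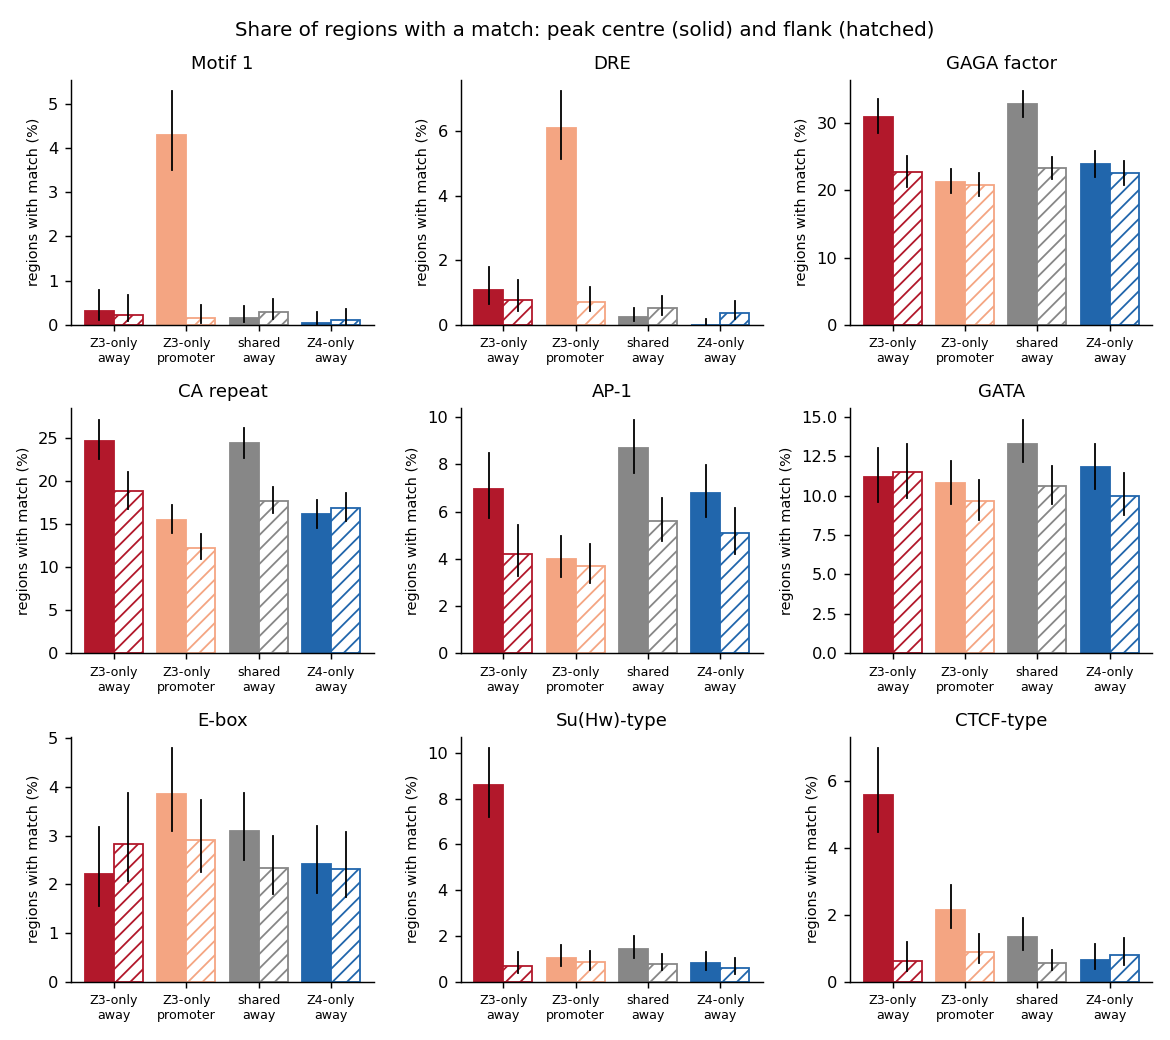
Percent of regions with a match (y axis) in the peak centre window (solid bars) and in the flank window 1000 bp downstream (hatched bars) for 9 letter patterns and 4 peak classes (Z3, ZKSCAN3; Z4, ZKSCAN4), with Wilson 95% intervals as lines. The members reach 8.58% and 5.59% in the Su(Hw)-type and CTCF-type panels, above the other classes, and lie at 0.306% in the Motif 1 panel.

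The members were low in score and narrow among the ZKSCAN3 peaks. The deposited score, whose meaning the sources used here do not give, ran from 13.9 to 169 with a median of 36.0 (quartiles 22.6 and 56.5). The medians were 77.0 in ZKSCAN3-only promoter peaks, 63.0 in shared peaks away from promoters and 107 in shared peaks at promoters, and 1151 members (86.4%) scored below the median of the whole list, 77.1. Of the 100 highest scores of the list, 0 belonged to members. Their median width was 506 bp (189 to 4075), against 906, 957 and 1654 bp in the other classes in that order.

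**Figure D3:**
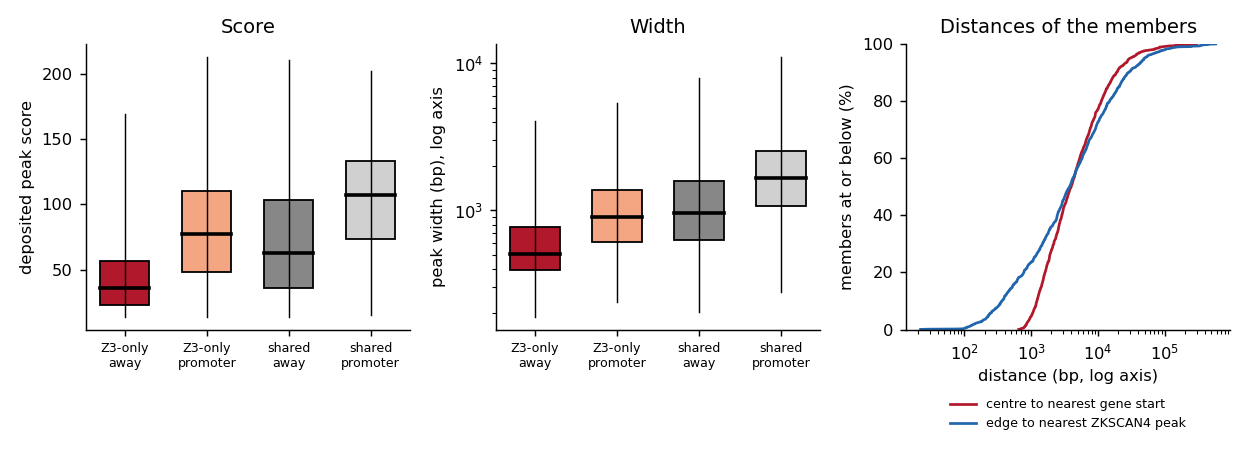
Left and middle, deposited peak score and peak width in bp (log axis) for 4 classes of ZKSCAN3 peaks, with boxes from the lower to the upper quartile, thick lines at the median and thin lines from the lowest to the highest value; right, the percent of members (y axis) at or below a distance in bp (x axis, log). The members have the lowest medians of the classes, 36.0 for the score and 506 bp for the width.

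The gap from a member's edge to the nearest ZKSCAN4 peak had a median of 3763 bp (quartiles 1099 and 11354, over the 1313 members with a ZKSCAN4 peak on the same sequence). It was under 1000 bp in 309 members. At the limit of the rule, 5 members lay under 100 bp from a ZKSCAN4 peak, the nearest at 22 bp, with a median score of 27.2, and 4 shared peaks away from promoters overlapped one by under 100 bp, with a median score of 29.2. At the promoter limit, 33 members ended within 100 bp beyond the 500 bp window (median score 32.7), and 48 ZKSCAN3-only promoter peaks reached into it by under 100 bp (median score 38.5). Measured from its centre, a member was a median of 3974 bp from the nearest 5'-most gene start (quartiles 1866 and 9064), 549 were more than 5000 bp away and 118 more than 20000 bp. The rule used the 5'-most start only, and 157 of 1306 members lay within 500 bp of another annotated transcript start. The 26 members on 22 unplaced or unlocalised scaffolds, whose names the gene table does not use, could not be held against any promoter.

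The members were less often intronic than the other peaks away from promoters. By the annotation at the peak centre, 657 of 1306 (50.3%, Wilson 95% interval 47.6 to 53.0) were in introns, 393 (30.1%) were intergenic, 120 (9.19%) in coding exons, 69 (5.28%) in 3' UTRs, 53 (4.06%) in 5' UTRs and 14 (1.07%) in non-coding exons. The intron share was 67.3% in shared peaks away from promoters and 59.0% in ZKSCAN4-only peaks away from promoters (Fisher's exact test, two-sided, adjusted over both tests, p = 7.84e-24 and 1.08e-06). The intergenic share was 18.4% and 16.7% in these classes. Annotated transposable elements lay under 49 member centres (3.75%, 2.85 to 4.93), a share of 3.35% (2.70 to 4.14) in shared peaks. Copies of an element share reads, so such positions are uncertain; 1360 had 6 members, 3S18 had 5 and HeT-A, a telomeric element, had 4.

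On the X chromosome, 307 of 1549 ZKSCAN3 peaks were members (19.8%, 17.9 to 21.9), while the share on the large autosomal arms was 12.1% (3R) to 14.6% (2R), with upper limits of at most 16.3%. Chromosome 4 had 19 of 78 (24.4%, 16.2 to 34.9). Median scores by large arm ran from 33.4 (2L) to 39.4 (2R), with 34.8 on X. The copy number of X against the autosomes in this line was not measured here.

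**Figure D4:**
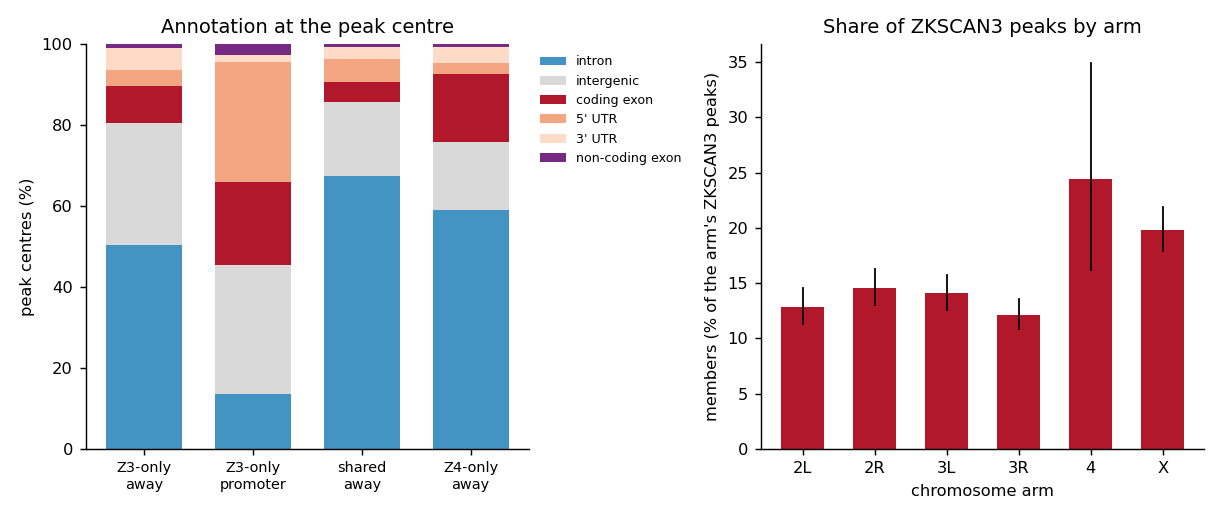
Left, percent of peak centres (y axis) by annotation for the members and 3 other classes (Z3, ZKSCAN3; Z4, ZKSCAN4), as stacked bars; right, members as a percent of all ZKSCAN3 peaks of each chromosome arm, with Wilson 95% intervals as lines. Introns take 50.3% of the members and 67.3% of shared peaks away from promoters, and the X bar stands at 19.8%.

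The 10 highest-scoring members scored 146 to 169. Those ranked 1, 2 and 4 (169, 166 and 158) lay in gene-poor sequence of 2R and at the start of the assembled Y, 83496, 82681 and 9469 bp from the nearest gene start (CR40100, lncRNA:CR46075 and Pp1-Y1), that ranked 2 in a Circe element and with the Su(Hw)-type core. The others near or in named genes were at chrX:19326726-19327152 (near out, score 164), chr3R:17385558-17386852 (in Brf, a subunit of the RNA polymerase III factor TFIIIB, and the overlapping lute, score 151), chr3L:5511888-5512466 (near CG34342, score 150), chr2R:9928923-9930364 (in an intron of Mef2, a transcription factor of muscle, nearest to the start of FBgn0033465, score 150), chr3R:9496672-9497178 (near phu, score 148), chr3L:17050050-17052389 (in rogdi, score 148) and chr2R:17098424-17098839 (in GstS1, a glutathione S-transferase, score 146). The peaks in Brf and lute, Mef2 and rogdi were also within 500 bp of another annotated transcript start, and the peak in Brf and lute was nearest to the start of lncRNA:CR43196. Motif 1 was in 0 of the 10 centre windows. The printed window of the Y peak holds a stretch of bases that recurs within it. Reads from repeated sequence can be shared, as for the elements above, so the members ranked 1, 2 and 4 may be uncertain in place and score. How uniquely reads mapped there was not tested.

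Members lay inside 712 gene bodies (911 members, 68.4%), of which 556 held 1 and 156 held more. These genes were long, with a median of 21.2 kb against 1.73 kb over all 17494 genes of the table. The most were held by lncRNA:CR44999 (7 members over 150 kb), followed with 6 each by raskol, a Ras GTPase-activating protein, Hr4 and Eip75B, nuclear receptors of the ecdysone response, and lncRNA:CR44357, and with 5 each by toc, bun and Tet. Members per kb ran from 0.0251 in lncRNA:CR44357 to 0.143 in raskol.

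Ecdysone is the steroid hormone that times insect moulting and metamorphosis, and its receptor, a dimer of EcR and usp, switches on a cascade of early transcription factors. Over all 17494 genes of the table, 712 held a member, and long genes have more room for one. Eip75B spans 114 kb and Hr4 66.0 kb, against a median of 1.73 kb over all genes. Of 12 genes of the ecdysone list found in the table, 9 held 27 members: Hr4 (6), Eip75B (6), EcR (4), ftz-f1 (4), Eip74EF (2), Eip63E (2), Hr3 (1), Eip93F (1) and br (1). They scored 14.6 to 134 with a median of 35.8, 26 of the 27 were intronic, and 16 held GAGAG. The highest, in the 3' UTR of Hr4 (chrX:2005797-2006255, score 134), held GAGAG, a CA repeat and the CTCF-type core. The member at chr3L:17988074-17988563 in an intron of Eip75B (score 91.7) held GAGAG and both insulator-type cores, and its Su(Hw)-type letters are among those shown above. In Eip74EF, which encodes an ETS factor, the members scored 52.8 and 93.4, the latter with the CTCF-type core. By the nearest 5'-most start, 5 genes of the ecdysone list had 9 members. The part of gene length in these counts was not tested.

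Hox genes set segment identity. Of the 10 Hox and cofactor genes, 4 held 8 members: Antp and Abd-B held 3 each and abd-A and hth 1 each. By the nearest 5'-most start, 1 of these 10 genes had 1 member, and gene length was not taken into account. The Antp member at chr3R:6912153-6912602 (score 84.0) held both insulator-type cores. Of the 20 Atg genes, which build the autophagosome, Atg5 held 2 intronic members with scores of 19.2 and 16.5, both with GAGAG. ush, a cofactor of GATA factors in blood cells, held 3 (15.9, 33.0 and 88.0), and kay, the fly Fos, held 1 (45.3). The 5 GATA factors held 0, and so did the 9 promoter and insulator factors in the table, su(Hw) and CTCF among them.

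RNA of the genes holding members was compared in the male fat bodies, whose libraries held 53462739 to 76798943 counts in genes. Of the 712 genes, 669 passed the filter on low counts. M1BP itself was at 15.7 and 17.0 CPM (counts scaled by library size) in WT and at 6.57 and 7.02 in M1BP RNAi, and did not overlap between these groups (log2 fold change -1.27, edgeR quasi-likelihood adjusted p = 0.00776). The fat body markers summed to 216673 to 356801 CPM over the 8 libraries. Salivary gland markers (7 of 7 in the table, 0 of them without counts in all libraries) summed to 11.1 and 5.12 CPM in the WT libraries and 11.9 and 23.4 with ZKSCAN3, against 617 and 34.3 under M1BP RNAi alone and 543 and 767 under M1BP RNAi + ZKSCAN3. Testis markers summed to 0.237 to 6.51 CPM except in M1BP RNAi replicate 1 (51.6). Hemocyte markers, also targets of the driver, summed to 888 and 998 CPM in the WT libraries and 363 and 849 with ZKSCAN3, against 469 and 387 under M1BP RNAi alone and 109 and 57.6 under M1BP RNAi + ZKSCAN3. Muscle markers summed to 181 to 249 CPM in the libraries without M1BP RNAi and to 44.5 to 131 in those with it. The part of these cells in the results below was not tested, and fewer cells of a type and less RNA per cell cannot be told apart in such samples.

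In M1BP RNAi against WT, 41 genes holding members rose and 30 fell, 71 of 669 (10.6%), beside 8.22% of all 11723 genes tested (3.93% higher and 4.29% lower; edgeR, false discovery rate 0.05). The median log2 fold change was 0.136 in these genes and 0.112 in all genes. The share was near the background, also in DESeq2 (173 genes, 92 higher and 81 lower, 25.7% beside 23.9%). In edgeR the count did not hold without 1 library. It fell without WT replicate 1, WT replicate 2 or M1BP RNAi replicate 1. It rose without M1BP RNAi replicate 2.

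Among the named risers, Mp, a collagen of basement membranes, was at 26.2 and 29.0 CPM in M1BP RNAi and 1.97 and 1.77 in WT, a log2 fold change of 3.88 ± 0.72 (SE, adjusted p = 0.0295). CG42673 was at 15.6 and 19.1 CPM against 2.38 and 1.38 (3.21 ± 0.40, adjusted p = 0.0115). prage was at 22.1 and 7.50 against 1.79 and 1.72 (3.07 ± 0.67, adjusted p = 0.0468), with its M1BP RNAi libraries far apart. Of those that fell, lncRNA:CR43836 was at 85.1 and 125 CPM against 714 and 1030 (-3.05 ± 0.32, adjusted p = 0.00765). Eglp4, of the aquaporin family, was at 76.1 and 131 against 615 and 684 (-2.65 ± 0.37, adjusted p = 0.0146). nrv2, a subunit of the sodium pump, was at 21.7 and 18.4 against 92.6 and 122 (-2.42 ± 0.41, adjusted p = 0.0249). Groups did not overlap for any of these 6 genes, as the rule that named them required.

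The ecdysone genes with members did not pass in any comparison. Eip75B was at 161 and 115 CPM under M1BP RNAi against 71.0 and 76.4 in WT, with 105 and 53.7 where ZKSCAN3 was added to the RNAi (M1BP RNAi against WT, log2 fold change 0.91 ± 0.36, adjusted p = 0.162). Hr4 was at 17.0 and 1.54 CPM in M1BP RNAi and at 1.04 and 1.25 in WT (adjusted p = 0.130), so its M1BP RNAi libraries differed more from each other than the lower of them from WT. The replicate with the high value is the one with the higher salivary gland and testis markers. In M1BP RNAi + ZKSCAN3, Hr4 was at 2.76 and 1.06 CPM and salivary gland markers summed to 543 and 767. What lay behind the high Hr4 value was not tested. EcR was at 104 and 124 CPM in M1BP RNAi and 106 and 107 in WT (adjusted p = 0.854). raskol, at 19.8 and 20.2 CPM against 9.98 and 9.53 (1.04 ± 0.29), had groups that did not overlap and missed the threshold (adjusted p = 0.0814). Of the genes holding or nearest to the 10 highest-scoring members, FBgn0033465 fell, from 246 and 258 CPM in WT to 105 and 126 in M1BP RNAi (-1.12 ± 0.15, adjusted p = 0.0124). Its start lay 18751 bp from the centre of the member, which is in an intron of Mef2. The others tested, Brf, GstS1, lute, Mef2, out, phu and rogdi, did not pass, beside 8.22% of all genes that did. The counts over whole lists in this comparison stand beside 8.22% of all genes tested, and the lists are short. Of 20 Atg genes tested, 1 rose and 1 fell (median log2 fold change 0.17). Of 12 ecdysone genes 0 passed either way, with a median of 0.75 (0.112 over all genes). Of 6 tested Hox and cofactor genes, 5 GATA factors and 5 AP-1 and JNK genes, 0 passed, with medians of -0.05, 0.06 and 0.28. Of 9 hemocyte genes 3 rose and 0 fell, with a median log2 fold change of 1.59 (0.112 over all genes), although the summed level of the 5 hemocyte markers, all on that list, was lower in both M1BP RNAi libraries than in WT. Of 9 promoter and insulator factors 1 fell, M1BP itself. Atg5 was at 12.1 and 12.9 CPM against 10.2 and 11.3 (adjusted p = 0.356).

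In ZKSCAN3 against WT, 0 of 669 genes passed in edgeR, as did 0% of all genes tested. At an unadjusted p under 0.05 there were 25 of 669, beside 384 of all 11723 genes, and DESeq2 called 1 (0.160%, beside 0.412% of all genes). The median log2 fold change was -0.021 in genes holding members and in all genes. Eip75B, at 122 and 83.9 CPM against 71.0 and 76.4, had an adjusted p of 0.932.

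In M1BP RNAi + ZKSCAN3 against M1BP RNAi, a comparison that shares the M1BP RNAi libraries with that above, 0 genes holding members rose and 2 fell (0.299%, beside 0.281% of all genes tested, 0.111% higher and 0.171% lower). Ada2b, a subunit of the SAGA histone acetyltransferase, was at 23.6 and 22.1 CPM against 47.6 and 46.7 (-1.05 ± 0.12, adjusted p = 0.0470). Pde1c, a cyclic nucleotide phosphodiesterase under the level set for naming and chosen after its values were seen, was at 2.25 and 1.97 against 7.01 and 6.47 (-1.67 ± 0.20, adjusted p = 0.0470). The count was 61 in DESeq2 (19 higher and 42 lower, 9.41% beside 9.86% of all genes). In edgeR it was 15 when replicate 1 of M1BP RNAi + ZKSCAN3 was left out (2.20%, beside 2.42% of all genes), and 0 when its replicate 2 or either M1BP RNAi library was. The median log2 fold change was -0.164 in genes holding members and -0.084 in all genes. Abd-B was at 21.2 and 17.3 CPM against 10.8 and 9.91 (0.89 ± 0.20) and missed the threshold (adjusted p = 0.148).

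**Figure D5:**
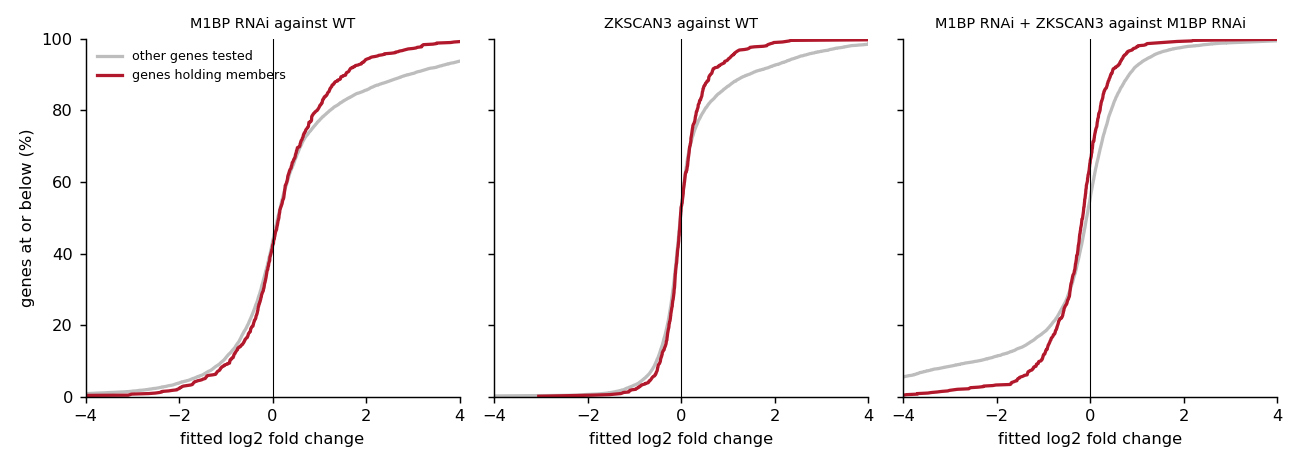
Cumulative percent of genes (y axis) by fitted log2 fold change (x axis, cut to -4 to 4) in 3 comparisons of male fat bodies, for genes holding members (red) and the other genes tested (grey). The red curves are steeper than the grey ones, whose tails reach further, and their medians are 0.136, -0.021 and -0.164 from left to right.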

How the data were processed

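The deposited peak lists hold 1 list per factor, which the authors made by aligning reads to dm6 with Subread and calling peaks with MACS2 over both ChIP replicates at a fixed irreproducible discovery rate; the score of each deposited peak has no stated meaning, and sequencing depth behind single peaks is unknown. The male count table holds raw counts for 17494 genes, made by the authors with featureCounts 1.6.1 and FlyBase 6.19, with strand not used and reads over more than 1 gene given to all of them, so nested and opposite genes share reads. Female libraries and the authors' tables of fold changes and adjusted p-values were not used here.

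Peaks were compared with bedtools 2.31.1 and Python 3.11 (SciPy), with overlap of at least 1 bp. Of 17358 genes of the count table found in the annotation (Ensembl release 115), 17229 (99.3%) had identical positions; 17357 of the 17494 IDs matched a symbol. Wilson 95% intervals and exact tests cover counting error only. The 8-mer ranking took 8-mers in at least 30 members, ordered by their share in centre over flank windows. Counts were fitted in edgeR 4.0.16 (R 4.3.3; quasi-likelihood test after filterByExpr and TMM scaling, with Benjamini-Hochberg adjusted p-values over all genes and a threshold of 0.05) over the 8 male libraries with genotype as the only term; the standard error is the log2 fold change over the square root of F. A gene held a member where the peak centre lay between its first and last exon boundary. Calling was tested on simulated data. Nothing in the sources says how the 2 libraries of a group were separated, so p-values measure the spread between these samples.

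Named were genes in or nearest to the 10 highest-scoring members, the 8 genes holding most members, per comparison the 3 largest rises and falls past the threshold without overlap and with at least 10 CPM in the higher group, and listed genes holding a member. The members and lists were chosen with earlier results of these data known. Alternatives were other overlap and promoter limits, every transcript start, higher scores, the whole peak, 1 mismatch in Motif 1, GATAA, DESeq2 1.42.0, its size factors, fewer libraries, no filter, a threshold of 0.001, the nearest gene start and a replicate block.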

Additional observations from a re-analysis of the deposited data

How the results depend on the processing

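The number of members was 386 with peaks at or above the median score of each list and stayed within 1.5 times the reported 1332 under 5 other rules (1023 to 1817). The differences in intron share kept direction and call under all 4 alternatives. The Su(Hw)-type and CTCF-type shares, under alternatives chosen after seeing the data, were 6.55% and 4.20% with 50% overlap, 11.8% and 8.81% over whole peaks, and 7.60% for CTCF-type at higher scores. Peak width differs between classes, so the whole-peak search gives wider classes more chances. The centre window, placed on the midpoint, can miss more sites in wider classes. Motif 1 lay in 4.30% of ZKSCAN3-only promoter peaks in the centre window and in 14.6% over the whole peak. The part of width in the centre-window differences was not tested.

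Differences below are percentage points, members minus the other class. Searching whole peaks turned GAGAG against ZKSCAN3-only promoter peaks (-6.68) and ZKSCAN4-only peaks (-0.595), CACACA against promoter (-0.147) and shared peaks (-15.9), the DRE against shared peaks (-0.285), Motif 1 against shared peaks (-0.382), GATAAG against promoter peaks (-12.6), AP-1 (-1.98) and the E-box (0.677) against ZKSCAN4-only peaks. It brought past the threshold Motif 1 against ZKSCAN4-only peaks (0.641), GATAAG against shared (-24.1) and ZKSCAN4-only peaks (-6.98), and GAGAG (-18.3), AP-1 (-18.1) and the E-box (-6.80) against shared peaks, and AP-1 against promoter peaks missed it (0.0610). With 50% overlap, GATAAG against flanks (0.672), the E-box against ZKSCAN4-only peaks (0.0124) and CACACA against shared peaks (-1.22) turned, GAGAG against shared peaks passed (-4.26) and the E-box against promoter peaks missed (-1.04). With no ZKSCAN4 peak within 1000 bp, Motif 1 (-0.0174) and CACACA (-0.640) against shared peaks and AP-1 against ZKSCAN4-only peaks (-0.751) turned. With every transcript start, Motif 1 against flanks (-0.0870), GATAAG against promoter peaks (-0.462) and the E-box against ZKSCAN4-only peaks (0.0325) turned, GATAAG against shared peaks passed (-3.24) and the E-box against promoter peaks missed (-1.18). At higher scores, AP-1 against ZKSCAN4-only peaks (-1.01) and CACACA against shared peaks (-3.54) turned, and AP-1 against promoter peaks (2.43) and flanks (1.82) and CACACA against flanks (3.95) missed. GATAA turned the difference from promoter peaks (-2.03) and passed against shared peaks (-4.38). The other 105 values kept direction and call. The whole peak has no flank test.

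Genes holding members called in M1BP RNAi against WT were 173 in DESeq2 (25.7%, beside 23.9% of all genes), 150 with only these genotypes (23.0%, beside 20.0%), 0 at 0.001 and 0 to 82 without 1 library (the 82 being 12.1%, beside 11.7%). In ZKSCAN3 against WT there was 1 in DESeq2 and 0 to 1 without 1 library. In M1BP RNAi + ZKSCAN3 against M1BP RNAi there were 61 in DESeq2 (9.41%, beside 9.86% of all genes), 0 with only these genotypes, with DESeq2 size factors and at 0.001, and 0 to 15 without 1 library (the 15 being 2.20%, beside 2.42%); a group left with 1 library is assumed to vary like the others. A replicate block gave 116 calls in M1BP RNAi against WT (17.3%, beside 13.1% of all genes), 0 in ZKSCAN3 against WT and 0 in M1BP RNAi + ZKSCAN3 against M1BP RNAi; deviations of same-numbered libraries correlated at -0.22 to 0.44 between groups, above 0.1 in 4 of 6 pairs of groups and at 0.44 for WT with M1BP RNAi. The labels do not say what the numbers share, so whether they pair the samples is not known and the block stands only as an alternative. The cause of these shifts was not tested.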
